A study of Mus musculus with 4 samples.

Results

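The 90 genes described here are the expressed genes of a stretch of mouse chromosome 12 whose transcripts were, as a group, more abundant in cells labelled Calu-KO than in cells labelled WT. They are the rows of the deposited expression table that lie whole between positions 21240825 and 59012017 of chromosome 12 (mm10, a length of 37.8 Mb) and whose FPKM averages 1 or more across all 4 libraries. FPKM is the number of sequenced fragments scaled to gene length and library size, so it allows levels to be compared between genes of different length. The stretch holds 552 of the 54532 rows of the table, and 462 of them were below 1 FPKM. The stretch was chosen on the difference between Calu-KO and WT in these same libraries, so that difference is described for its genes below without a test.

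The study compared mouse cells titled as primary lung fibroblasts, the collagen-making cells of the lung, in 2 groups of 2 RNA-seq libraries. The WT group has the genotype Calu-WT and the other group the genotype Calu-KO, in which the targeted gene is Calu, for calumenin, which binds calcium in the endoplasmic reticulum (ER) and along the secretory route. The titles abbreviate the groups as NC and KD, and no treatment is labelled. The way Calu was targeted and whether the Calu-KO cells are 1 clone (both not given in the sources used here) limit what the groups stand for. Nor do the labels say that replicates are separate animals or cultures, so the p-values below reflect only variation among these libraries, possibly technical. Values are given in the order replicate 1, then replicate 2.

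Depth was even, at 15635448 to 16510048 reads per library. Calu itself, on chromosome 6, was at 178 and 177 FPKM in WT and at 14.9 and 10.9 FPKM in Calu-KO, and it fell by 3.70 on the log2 scale (SE 0.17, adjusted p = 0.00493, limma). Of the 9 fibroblast markers, Col1a1, Col1a2, Col3a1, Pdgfra, Pdgfrb and Vim were expressed in all 4 libraries, whereas Dcn and Lum had no read in any and Thy1 stayed between 0.0408 and 0.137 FPKM. Within this list Col3a1 fell, from 38.9 and 39.4 FPKM in WT to 11.9 and 12.2 in Calu-KO (adjusted p = 0.0115, limma), while Col1a2 was at 234 and 229 in WT and 343 and 394 in Calu-KO (adjusted p = 0.0721, limma). The epithelial marker Epcam, the endothelial markers Cdh5 and Kdr and the macrophage marker Adgre1 had no read in any library. Of the mesothelial markers, Upk3b, Wt1 and Lrrn4 had at most 3 reads in any library. Msln, the remaining one, lay between 22.1 and 33.0 FPKM, with Calu-KO below WT. The epithelial keratin Krt8 (2.28 to 2.75 FPKM in WT, 0.0604 to 0.0699 in Calu-KO) and the macrophage genes Lyz2 (6.59 to 7.23, then 1.25 to 1.71) and Cd68 (4.32 to 4.79, then 2.4 to 2.78) were also lower in Calu-KO, and their part in the differences below was not tested. Replicate 2 of Calu-KO stood apart from the other libraries by its share of mitochondrial reads, at 4.002% against 2.43% to 2.53%, and by the fewest genes with a read, at 18739 against 19772 to 20477.

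Genes that neighbour each other on a chromosome seldom share a function, and the proteins of one complex are usually encoded on many chromosomes. Where the DNA of a region is present in extra copies, its transcripts often become more abundant roughly in step, while those of its partners encoded elsewhere need not. The number of DNA copies of this stretch was not tested, since only RNA was analysed here. The genes of the stretch include single subunits of the ribosome, the proteasome, the COPII coat and several membrane tethers, which allows each of them to be set beside its partners.

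Of the 90 genes, 77 were higher in both Calu-KO libraries than in both WT libraries, 5 were lower in both, and in 8 the groups overlapped. Over all 11885 genes with at least 1 FPKM, 32.0% were higher and 29.7% lower without overlap. The median difference over the 90 genes was 0.77 on the log2(FPKM + 1) scale, from -0.71 to 1.73, and the median over all tested genes was 0.0072. As a ratio of the Calu-KO mean FPKM to the WT mean FPKM, called the ratio from here on, the median was 1.84 with quartiles of 1.53 and 2.12. Each Calu-KO library alone gave a median near this value, 1.77 in replicate 1 and 1.81 in replicate 2. These counts describe the choice of the stretch and carry no further weight. Reads from the 90 genes made up 0.763% and 0.774% of each WT library and 1.35% and 1.30% of each Calu-KO library.

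**Figure D1:**
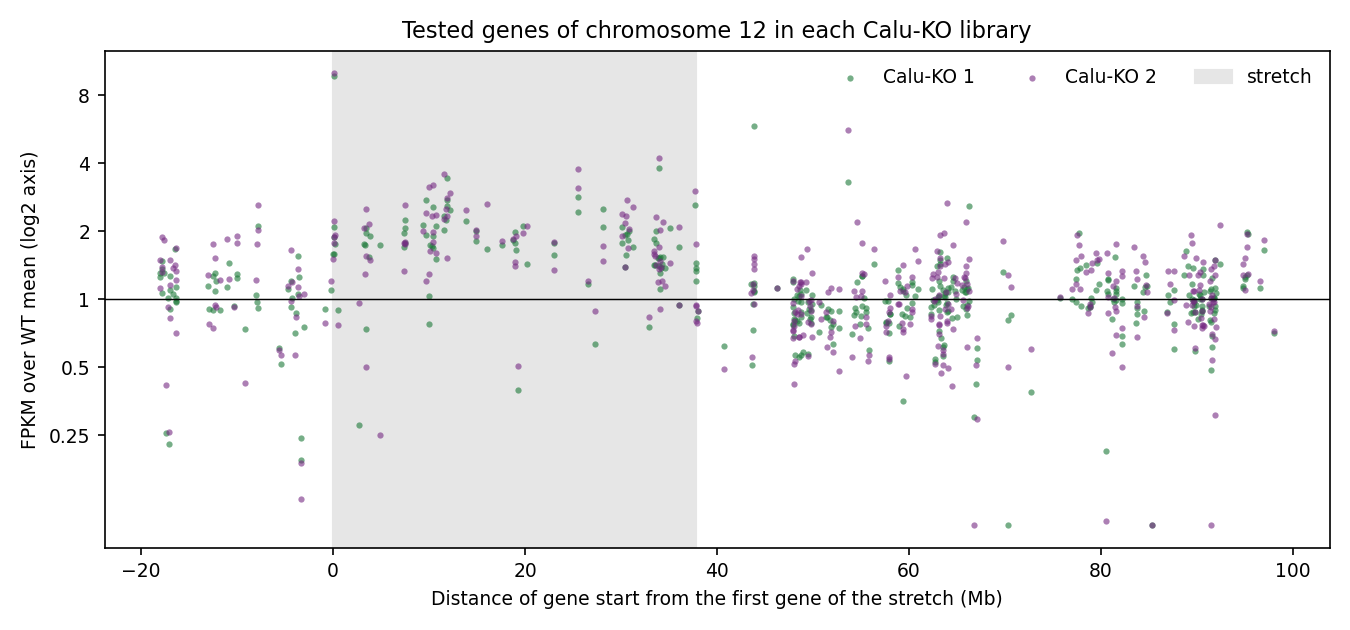
Ratio of each Calu-KO library to the WT mean, on a log2 axis, for every tested gene of chromosome 12 against the distance of its start from the first gene of the stretch, in Mb. Each gene has 1 green and 1 purple point, values beyond the axis are drawn at 0.1 or 10, and the points of the grey stretch lie mostly near the median of 1.84 while those beside it scatter about 1.

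The ratios of most protein-coding genes lay close together. Of 75 coding genes, 56 had a ratio from 1.5 to below 2.5, which is 74.7% of them, against 6.31% of the tested coding genes outside the stretch. The stretch was chosen on these ratios, so this contrast describes that choice. Another 6 coding genes had a higher ratio and 13 a lower one, 3 of them below 1. The level in WT was ordinary, with a median of 8.65 FPKM over the 90 genes against 8.41 over all tested genes, and gene length was similar, at a median of 4104.5 against 3885 bases. GC content was lower, with a median of 44.6% against 49.4%. With a trend on GC content and length removed from all genes, the median log2 difference was 0.70.

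**Figure D2:**
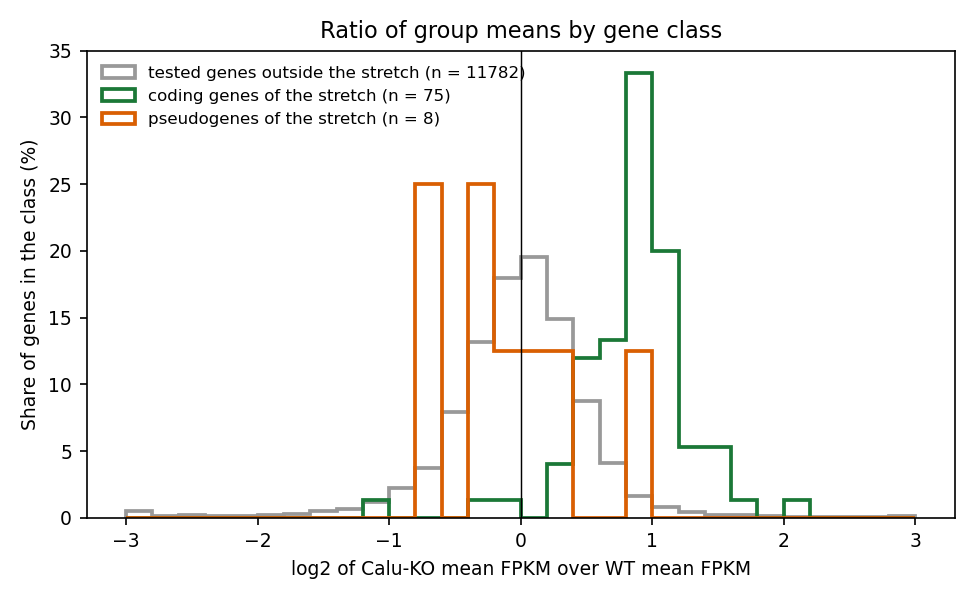
Share of genes, in percent, by log2 of the ratio of Calu-KO mean FPKM to WT mean FPKM, for the 75 coding genes and 8 pseudogenes of the stretch and 11782 tested genes outside it that have a read in WT; ratios beyond the axis are drawn at its ends. The coding genes of the stretch lie mostly between 0.5 and 1.5, the genes outside are centred on 0, and the pseudogenes spread on both sides of 0. The stretch was chosen on the ratios of its own genes, so the contrast with the genes outside describes that choice.

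Along the stretch, the median ratio of coding genes in consecutive windows of 5 Mb was 1.85, 1.82, 2.08, 2.02, 1.78, 2.60, 1.84 and 1.5. The window at 2.60 holds only 2 coding genes, and the last window, at 1.5, holds 14. Both Calu-KO libraries gave a median above 1.4 in every window. On the rest of the chromosome, 330 tested genes had a median ratio of 1.02, with 107 higher and 103 lower without overlap.

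The edges of the stretch were set by these values too. On the proximal side, the nearest tested gene outside is Asap2, which encodes a GTPase-activating protein for Arf, at 4.18 and 4.47 FPKM in WT and 4.76 and 5.21 in Calu-KO, a ratio of 1.15. Its end overlaps Itgb1bp1, the first gene inside, whose ratio was 1.54, and reads in that overlap cannot be told apart because no source used here gives the use of strand in counting. The next genes outward are the pseudogenes Mrto4-ps1, at 9.32 and 10.1 FPKM in WT and 8.78 and 7.59 in Calu-KO, and Bnip3l-ps, at 6.47 and 8.51 in WT and 5.64 and 7.92 in Calu-KO. Neither was higher in both Calu-KO libraries.

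On the distal side, Sec23a is the last gene inside, Mipol1, with a ratio of 0.944, is the one before it, and Gemin2, which helps assemble spliceosomal ribonucleoproteins, starts 1375 bases away on the other strand. Gemin2 was at 12.5 and 12.4 FPKM in WT and at 18.1 and 11.8 in Calu-KO. Trappc6b, a subunit of the TRAPP tether, was at 12.5 and 13.0 in WT and at 17.4 and 11.8 in Calu-KO. Pnn, a nuclear splicing-associated protein, was at 24.1 and 26.3 in WT and at 33.7 and 20.2 in Calu-KO. In each of these 3 genes, Calu-KO replicate 1 was above and replicate 2 below both WT libraries, whereas Sec23a was higher in both. In replicate 1 their ratios to the WT mean, 1.45, 1.37 and 1.34, stood beside a median of 1.53 over the coding genes of the last 5 Mb window inside. At the expression limit, the genes just inside were Grhl1, Gm32899 and Dock4, with means of 1.06, 1.09 and 1.16 FPKM. Those just outside were Gm36634, Gm43517 and Gm4419, with 0.997, 0.962 and 0.943 FPKM. The WT means of Grhl1, Gm32899 and Sh3yl1 were 0.843, 0.736 and 0.960 FPKM, so these genes passed the limit only through Calu-KO, as did Gm25821. Grhl1 and Gm25821 are counted among the 77 higher genes. Dock4, with a Calu-KO mean of 0.721 FPKM, passed only through WT.

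**Figure D3:**
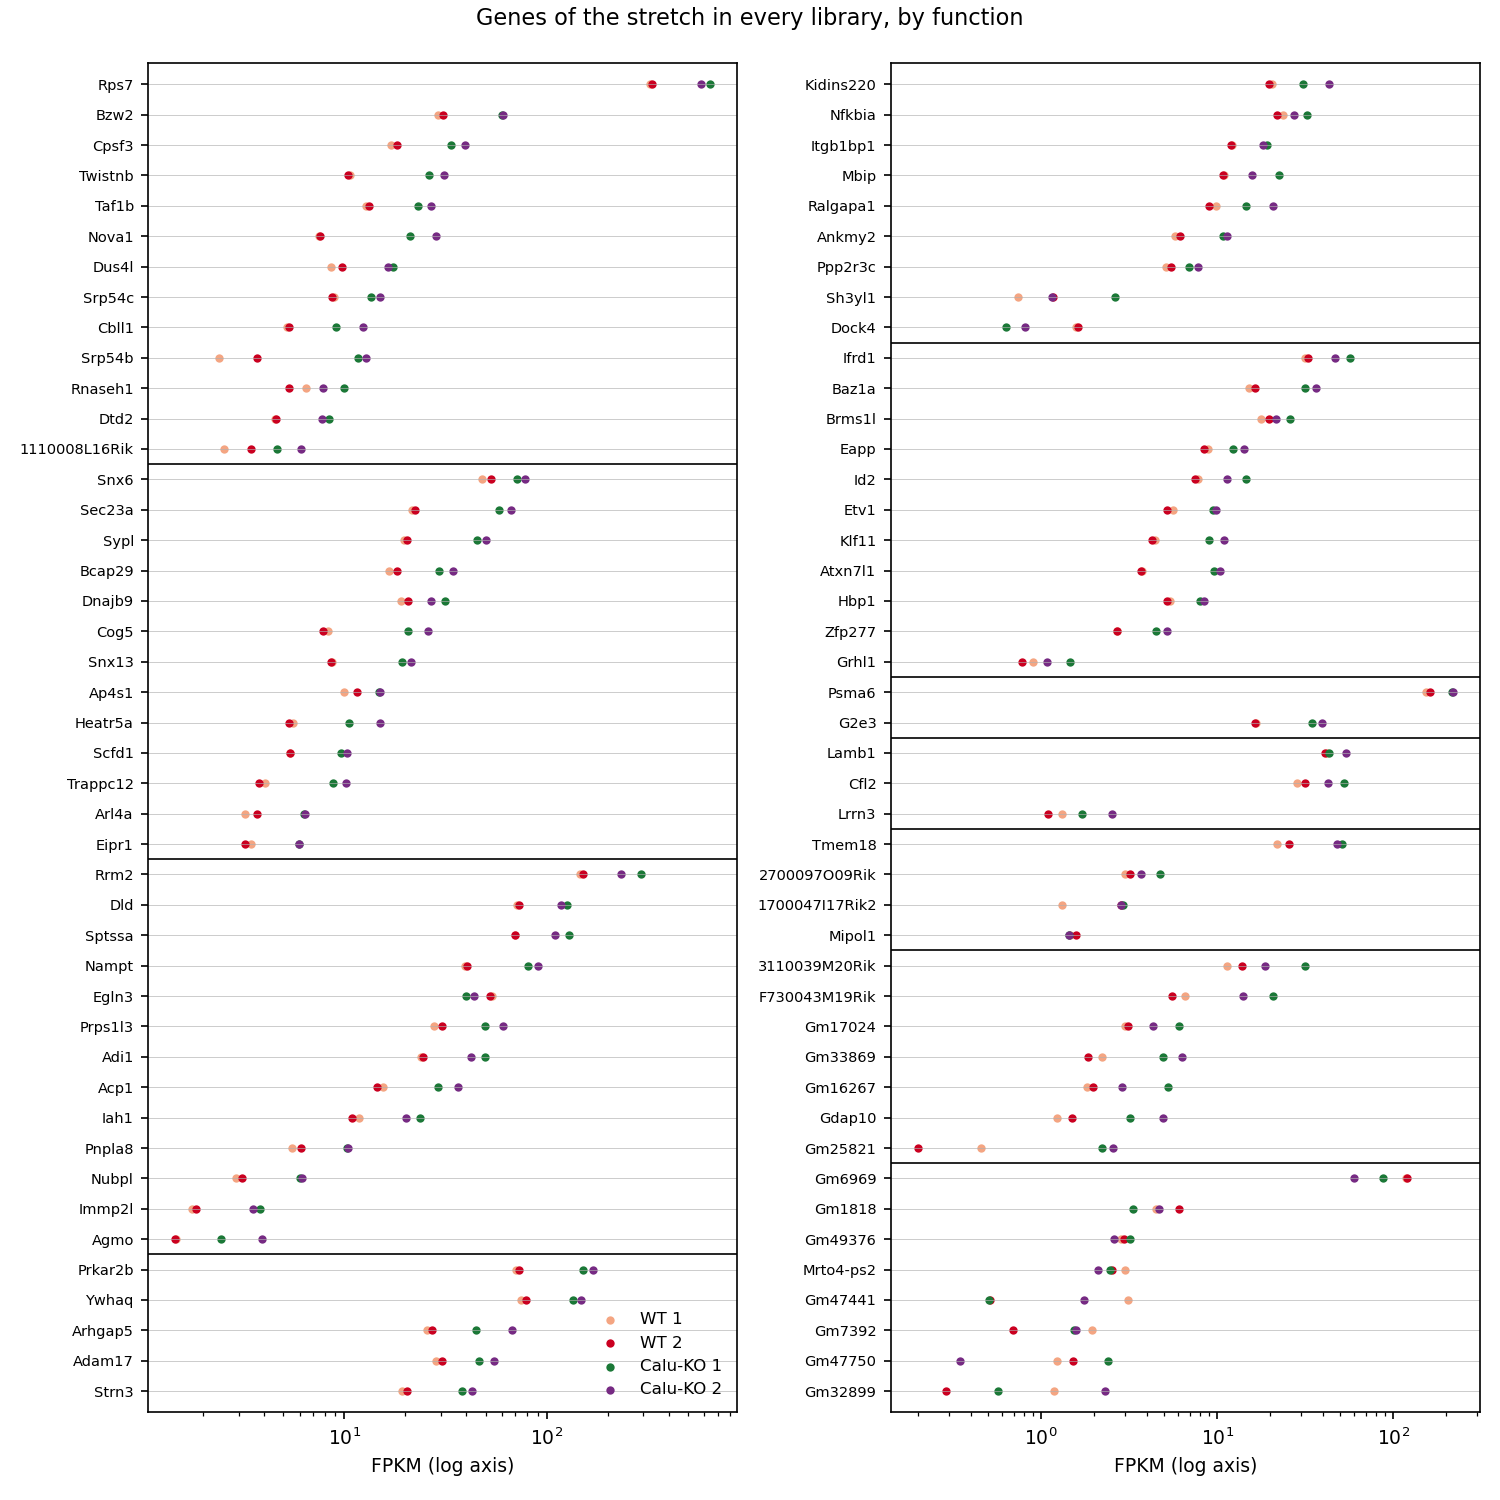
FPKM of 88 of the 90 genes in each of the 4 libraries, on a log axis, grouped by function in the order RNA processing and translation, traffic, metabolism, signalling, transcription and chromatin, proteasome and ubiquitin, matrix and surface, other coding genes, non-coding RNAs and pseudogenes, with lines between groups. Green and purple Calu-KO points lie to the right of the red WT points in 75 of the genes plotted; Gm25821 had no read in WT replicate 2 and is drawn there at 0.2 FPKM.

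The 13 genes of RNA processing and translation were all higher in both Calu-KO libraries, with a median log2 difference of 0.89. Rps7, a protein of the small ribosomal subunit and the most abundant of the 90 genes, was at 325 and 331 FPKM in WT and 643 and 581 in Calu-KO, a ratio of 1.86. Bzw2, a regulator of translation initiation, was at 29.01 and 30.5 in WT and 59.8 and 60.6 in Calu-KO. Cpsf3, the endonuclease that cuts pre-messenger RNA before polyadenylation, was at 17.1 and 18.3 in WT and 33.5 and 39.2 in Calu-KO. In these 3 genes each Calu-KO value was more than 1.5 times either WT value. Twistnb, a subunit of RNA polymerase I, was at 10.6 and 10.45 in WT and 26.1 and 31.2 in Calu-KO, a ratio of 2.72. Taf1b, which belongs to the SL1 factor that brings that polymerase to ribosomal DNA, had a ratio of 1.91. Nova1, a splicing regulator best known from neurons, was at 7.49 and 7.54 in WT and 21.2 and 28.5 in Calu-KO, a log2 difference of 1.59. Gm33869, grouped below with the non-coding RNAs, lies inside Nova1 on the same strand, so reads there may be shared. The ratio was 1.85 for the transfer RNA enzyme Dus4l, 2.03 for Cbll1, part of the m6A methyltransferase complex, and 1.76 for Dtd2, which removes D-amino acids from transfer RNA. Rnaseh1, which degrades RNA in RNA-DNA hybrids, had 1.51, and 1110008L16Rik, the nuclease of mitochondrial RNase P, had 1.79.

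Srp54b had the highest difference of all 90 genes, but reads in its coding sequence may be shared, since 3 genes have near-identical coding sequences. Srp54 binds the signal peptide as it leaves the ribosome in the signal recognition particle, which brings secretory proteins to the ER. Mouse chromosome 12 carries 3 copies within this stretch, Srp54a, Srp54b and Srp54c. In GENCODE M21 (GRCm38) the coding sequence of each is 1515 bases, that of Srp54a and Srp54b is identical, and that of Srp54c differs from both at 6 positions, an identity of 99.6%. Of all 100-base windows of the Srp54b coding sequence, 73.7% occur unchanged in that of Srp54c. The gene lengths used for FPKM are longer, 4513 bases for Srp54b and 3642 for Srp54c, and the sequence outside the coding part was not compared. The sequences of coding positions 877 to 966 are shown, 5′ to 3′, because they hold 3 of the 6 differing positions, given in capitals, and show how little tells the coding sequences apart.
Srp54a: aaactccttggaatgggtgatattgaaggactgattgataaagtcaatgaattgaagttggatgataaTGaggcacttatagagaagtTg
Srp54b: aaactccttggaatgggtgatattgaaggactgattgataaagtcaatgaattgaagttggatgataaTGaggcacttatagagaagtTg
Srp54c: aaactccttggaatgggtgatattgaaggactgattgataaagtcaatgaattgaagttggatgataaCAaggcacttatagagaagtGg
Srp54b was at 2.4 and 3.68 FPKM in WT and 11.6 and 12.8 in Calu-KO, a log2 difference of 1.73. Srp54c was at 8.87 and 8.73 in WT and 13.5 and 15.1 in Calu-KO, a ratio of 1.62. Srp54a, below the limit of 1 FPKM, was given 16 and 6 reads in WT against 26 and 15 for Calu-KO. Both Srp54b and Srp54c were higher in each Calu-KO library, but by unequal amounts. Summed over the 3 copies, there were 722 and 810 reads in WT against 1743 and 1660 for Calu-KO, and after scaling the reads as in FPKM the ratio was 2.33. That sum does not depend on how counted reads were divided among the copies, and its ratio lies below the 4.02 of Srp54b alone. How reads that match several copies were treated is unknown here.

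All 13 genes of the secretory and endosomal pathway were higher in both Calu-KO libraries, with a median log2 difference of 0.83. Sec23a, the inner-coat subunit of the COPII vesicles that leave the ER, was at 21.7 and 22.3 FPKM in WT and 57.8 and 66.2 in Calu-KO, a ratio of 2.82. Snx6, a sorting nexin that works with retromer on endosomes, was at 47.8 and 52.9 in WT and 71.6 and 78.2 in Calu-KO, a ratio of 1.49. Sypl, a membrane protein related to synaptophysin, was at 19.7 and 20.4 in WT and 45.2 and 50.1 in Calu-KO. The WT and Calu-KO values were well apart in these 3 genes. Bcap29, an ER membrane protein, was at 16.6 and 18.3 in WT and 29.3 and 34.4 in Calu-KO. Cog5, a subunit of the COG tether that keeps Golgi enzymes in place, was at 8.25 and 7.83 in WT and 20.5 and 25.7 in Calu-KO, a log2 difference of 1.41. Dnajb9, a co-chaperone of the ER that is also a target of the unfolded protein response, had a ratio of 1.46. The lowest ratios of the group were those of Ap4s1, the small subunit of the AP-4 adaptor, at 1.39, Dnajb9 and Snx6. Higher ratios were found for Trappc12 of the TRAPP tether at 2.43, the sorting nexin Snx13 at 2.36 and Heatr5a at 2.35. Scfd1, which assembles Golgi SNAREs, had 1.84, the small GTPase Arl4a 1.83, and Eipr1, a partner of the EARP tether, 1.78.

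Among 13 genes of metabolism and mitochondria, 12 were higher and 1 was lower in both Calu-KO libraries, with a median log2 difference of 0.80. Rrm2, the small subunit of ribonucleotide reductase and a gene of dividing cells, was at 147 and 151 FPKM in WT and 292 and 233 in Calu-KO. Dld, the dihydrolipoamide dehydrogenase that the 2-oxoacid dehydrogenase complexes share, was at 71.2 and 72.9 in WT and 125.3 and 118 in Calu-KO. Sptssa, a small subunit of the serine palmitoyltransferase that starts sphingolipid synthesis, was at 69.6 and 69.6 in WT and 129 and 110.3 in Calu-KO. The ratios of the 3 genes were close to each other, at 1.76, 1.69 and 1.72. Nampt, the rate-limiting enzyme of NAD salvage, was at 39.3 and 40.5 in WT and 80.9 and 90.7 in Calu-KO, a ratio of 2.15. Egln3, a prolyl hydroxylase that marks hypoxia-inducible factor for destruction, went the other way, with 53.5 and 52.2 in WT and 39.97 and 43.9 in Calu-KO. Its log2 difference of -0.33 was among the 5 lowest of the 90 genes. The other 8 genes of the group had ratios from 1.79 to 2.17. They were the lipase Pnpla8, the phosphatase Acp1, the esterase-like Iah1, the phosphoribosyl pyrophosphate synthetase homologue Prps1l3, Adi1 of methionine salvage, Nubpl, which serves complex I assembly, the inner-membrane peptidase Immp2l and the ether-lipid enzyme Agmo.

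The signalling group of 14 genes had 12 higher, 1 lower and 1 with overlap, and a median log2 difference of 0.78. Prkar2b, a regulatory subunit of cAMP-dependent protein kinase, was at 70.2 and 73.2 FPKM in WT and 152 and 169 in Calu-KO, a ratio of 2.24. Ywhaq, the 14-3-3 theta protein, was at 74.98 and 78.6 in WT and 135 and 148 in Calu-KO. Arhgap5, a GTPase-activating protein, was at 25.6 and 27.2 in WT and 44.8 and 67.6 in Calu-KO. In Arhgap5 the Calu-KO libraries differed more from each other than in the other 2 genes, with replicate 2 the higher. Adam17, the protease that sheds tumour necrosis factor and receptors from the cell surface, was at 28.2 and 30.3 in WT and 46.4 and 54.96 in Calu-KO. Nfkbia, the inhibitor that holds NF-kappa-B in the cytoplasm and is also its target, was at 23.6 and 21.9 in WT and 32.6 and 27.5 in Calu-KO, with the lowest ratio among the 12 genes that were higher, 1.32. The ratio was 2.05 for Strn3 and 1.39 for Ppp2r3c, both regulatory partners of protein phosphatase 2A, 1.85 for Kidins220 and 1.54 for the integrin-tail binder Itgb1bp1. It was 1.76 for Mbip of the ATAC complex, 1.86 for the Ral regulator Ralgapa1 and 1.86 for Ankmy2. Sh3yl1, a lipid-binding protein, overlapped between groups, at 0.741 and 1.18 in WT and 2.64 and 1.15 in Calu-KO. Dock4, which activates Rac and Rap GTPases, was at 1.58 and 1.62 in WT and 0.632 and 0.809 in Calu-KO. Its log2 difference of -0.60 was the lowest of any coding gene among the 90, and it passed the limit of 1 FPKM only through WT.

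The 12 genes of transcription and chromatin were all higher in both Calu-KO libraries, with a median log2 difference of 0.68. Ifrd1, a transcriptional co-regulator, was at 31.5 and 32.8 FPKM in WT and 56.8 and 46.9 in Calu-KO. Baz1a, the large partner of the ISWI remodeller in the ACF complex, was at 15.1 and 16.4 in WT and 31.6 and 36.4 in Calu-KO. Baz1a had the higher ratio of this pair, 2.16 against 1.61. Brms1l, a subunit of the SIN3 deacetylase complex, was at 17.8 and 19.7 in WT and 25.8 and 21.5 in Calu-KO, and its ratio of 1.26 was the lowest of the group. The highest was that of Atxn7l1, a SAGA-related protein, at 2.7, followed by the zinc-finger factor Klf11 at 2.29. Id2, the inhibitor that sequesters E proteins, had 1.7, and the ETS factor Etv1 had 1.78. The remaining 4 genes, Eapp, Hbp1, Zfp277 and Grhl1, had ratios from 1.51 to 1.78. Of these, Grhl1 passed the limit of 1 FPKM only through Calu-KO, the group where it was higher.

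Psma6, an alpha subunit of the 20S proteasome, was at 153 and 162 FPKM in WT and 216 and 218 in Calu-KO, a ratio of 1.38. G2e3, a ubiquitin ligase, was at 16.6 and 16.5 in WT and 34.7 and 39.4 in Calu-KO. Both genes were higher in each Calu-KO library, Psma6 by the smaller ratio. Lamb1, the beta-1 chain of basement-membrane laminin, was at 42.00 and 40.8 in WT and 42.99 and 53.6 in Calu-KO. Its groups did not overlap, but Calu-KO replicate 1 was close to WT, and the ratio of 1.17 was the lowest among the coding genes that were higher. Cfl2, an actin-severing cofilin, was at 28.3 and 31.5 in WT and 52.8 and 42.5 in Calu-KO. Lrrn3, a leucine-rich surface protein, was at 1.31 and 1.09 in WT and 1.71 and 2.53 in Calu-KO.

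The remaining coding genes are less well understood. Tmem18, a nuclear-membrane protein, was at 22.00 and 25.6 FPKM in WT and 50.9 and 47.9 in Calu-KO, a ratio of 2.08. The gene 2700097O09Rik was at 2.99 and 3.2 in WT and 4.71 and 3.68 in Calu-KO. The gene 1700047I17Rik2 was at 1.31 and 2.84 in WT and 2.92 and 2.83 in Calu-KO. Tmem18 alone of these reached a ratio of 2, and the groups of 1700047I17Rik2 overlapped. Mipol1 was at 1.46 and 1.59 in WT and 1.44 and 1.44 in Calu-KO, slightly lower in both. Mipol1 overlaps Prps1l3 on the same strand, and in all 26 of the 90 genes overlap another tested gene, so their reads may be shared.

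The 7 genes grouped as non-coding RNAs were all higher in both Calu-KO libraries, with a median log2 difference of 1.08, and several lie in or beside a coding gene. The long RNA 3110039M20Rik was at 11.5 and 13.8 FPKM in WT and 31.6 and 18.7 in Calu-KO. F730043M19Rik was at 6.58 and 5.52 in WT and 20.8 and 14.1 in Calu-KO. Gm17024, inside Ifrd1 on the same strand, was at 2.99 and 3.13 in WT and 6.06 and 4.32 in Calu-KO. In the first of these, Calu-KO replicate 2 was much nearer to WT than replicate 1. Gm33869, inside Nova1, was at 2.24 and 1.84 in WT and 4.95 and 6.34 in Calu-KO. Gm16267, which overlaps F730043M19Rik on the other strand, had a ratio of 2.14, and Gdap10, inside Nampt, had 2.97. The small nucleolar RNA Gm25821, inside Cpsf3, had 1 and 0 reads in WT against 5 and 5 for Calu-KO. Its log2 difference of 1.49 rests on these few reads, and it passed the limit of 1 FPKM only through the Calu-KO libraries.

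None of the 8 pseudogenes was higher without overlap, 2 were lower and 6 overlapped. Over 790 tested pseudogenes outside the stretch, 21.6% were higher and 24.2% lower without overlap. The median ratio was 0.913 inside and 0.978 outside, and 3 of the 8 had a ratio above 1. Gm6969 was at 119 and 120.0 FPKM in WT and 87.9 and 59.8 in Calu-KO, a log2 difference of -0.71 and the lowest of the 90 genes. Gm1818 was at 4.49 and 6.05 in WT and 3.35 and 4.68 in Calu-KO. Gm49376 was at 2.83 and 2.95 in WT and 3.22 and 2.61 in Calu-KO. Gm6969 alone of these 3 had separated groups. Mrto4-ps2 was at 3.0 and 2.52 in WT and 2.48 and 2.12 in Calu-KO, also lower in both. Gm47441 was at 3.13 and 0.515 in WT and 0.506 and 1.75 in Calu-KO. The other 3, Gm7392, Gm47750 and Gm32899, had at most 2.39 FPKM in any library and overlapped. Gm1818 and Gm49376 are labelled as unprocessed pseudogenes and the others as processed ones. A processed pseudogene is a copy of a spliced messenger RNA put back in the genome, and its reads may come from the parent gene elsewhere. Which share of these reads did so was not tested.

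Neighbouring genes that start back to back did not always differ alike. Of the 90 genes, 14 form 7 head-to-head pairs whose starts lie within 1000 bases, and in 6 pairs both ratios were above 1. Zfp277, a zinc-finger protein, and Dock4 start 49 bases apart in the table's coordinates. Zfp277 was at 2.71 and 2.71 FPKM in WT and 4.5 and 5.17 in Calu-KO, a ratio of 1.78, while Dock4 had 0.45. Dus4l was at 8.56 and 9.74 in WT and 17.4 and 16.4 in Calu-KO, and Cog5, which starts 42 bases away, had the higher ratio of the pair, 2.88 against 1.85. Acp1 was at 15.5 and 14.5 in WT and 28.9 and 36.3 in Calu-KO, a ratio of 2.17, and Sh3yl1, 78 bases away, was above both WT libraries in Calu-KO replicate 1 but not in replicate 2. Dock4 passed the limit of 1 FPKM only through WT and Sh3yl1 only through Calu-KO. Their contrasts with their neighbours are therefore a description that carries no further weight.

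The DNA between the starts of these 3 pairs is shown because each pair shares it. It is the plus strand of GRCm38.p6 between the RefSeq starts, which differ from the table's, and capitals mark a CCAAT box (CCAAT or its reverse complement ATTGG) or a GC box (GGGCGG or its reverse complement CCGCCC). The stretches are chr12:40445791-40446052 for Zfp277 and Dock4, chr12:31654827-31654868 for Dus4l and Cog5, and chr12:30911613-30911668 for Acp1 and Sh3yl1.
Zfp277-Dock4: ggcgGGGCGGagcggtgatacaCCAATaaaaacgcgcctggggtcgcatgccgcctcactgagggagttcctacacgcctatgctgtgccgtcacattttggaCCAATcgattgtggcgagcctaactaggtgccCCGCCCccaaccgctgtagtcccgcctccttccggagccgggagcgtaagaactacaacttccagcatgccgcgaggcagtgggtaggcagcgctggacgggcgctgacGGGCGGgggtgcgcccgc
Dus4l-Cog5: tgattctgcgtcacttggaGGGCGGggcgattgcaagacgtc
Acp1-Sh3yl1: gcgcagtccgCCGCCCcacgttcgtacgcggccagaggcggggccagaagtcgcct
The DNA between Zfp277 and Dock4 holds 2 CCAAT and 3 GC box matches, and that of either other pair holds 1 GC box. RefSeq promoter windows, from 250 bases before to 50 bases after a start, were found for 68 of the 90 genes, 79 windows in all. A GC box lay in 57.0% of them and in 35.7% of all 32851 windows, and a CCAAT box in 40.5% and 37.4%. The letters TATAAA or TTTATA lay in 6.33% and 13.6%, and TGACGTCA, the cAMP response element, in 3.8% and 1.79%. The 79 windows belong to genes expressed in these cells, whereas the 32851 were taken with no limit on expression, so the shares compare unlike sets. The windows also differed in GC content, with a median of 62.3% against 52.7%, and these matches are a description of letters, not of bound sites.

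**Figure D4:**
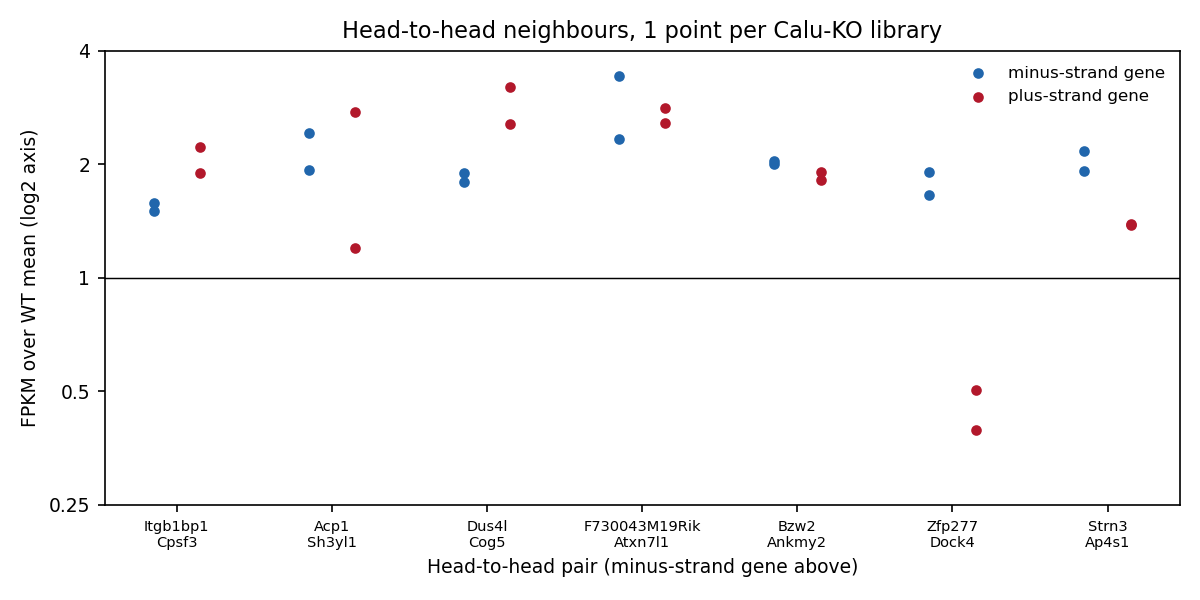
Ratio of each Calu-KO library to the WT mean, on a log2 axis, for the 7 head-to-head pairs of the stretch, with the minus-strand gene in blue and the plus-strand gene in red. Dock4 lies below 1 in both libraries, with 0.450 for the mean, while its neighbour Zfp277 lies above 1. Dock4 passed the limit of 1 FPKM only through WT, and Sh3yl1 only through Calu-KO.

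The partners of these genes lie outside the stretch and were not used to choose it. Of 34 lists of complexes and pathways, the 33 with an expressed gene of the stretch were counted, which leaves out the list of Ahr. Over their 236 tested partner genes, 2 were called higher and 1 lower by limma, which is 0.847% and 0.424%, against 0.942% and 1.83% of all tested genes. At an unadjusted p under 0.05, limma gave 10 partners higher and 23 lower, which is 4.24% and 9.75%, against 12.04% and 12.73% of all tested genes. The median ratio of the partners was 1.01, with quartiles of 0.868 and 1.16, and that of the 35 genes of the stretch in these lists was 1.76. Without overlap, 78 partners were higher, 33.1%, and 66 were lower, 28.0%. In 27 of the 33 lists with an expressed gene of the stretch, every tested partner had a lower ratio than that gene. The exceptions were the lists of Rrm2, Lamb1, Brms1l, Nfkbia, Egln3 and Id2. Because the stretch was chosen on the ratios of its own genes, this count largely describes that choice and carries no further weight.

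**Figure D5:**
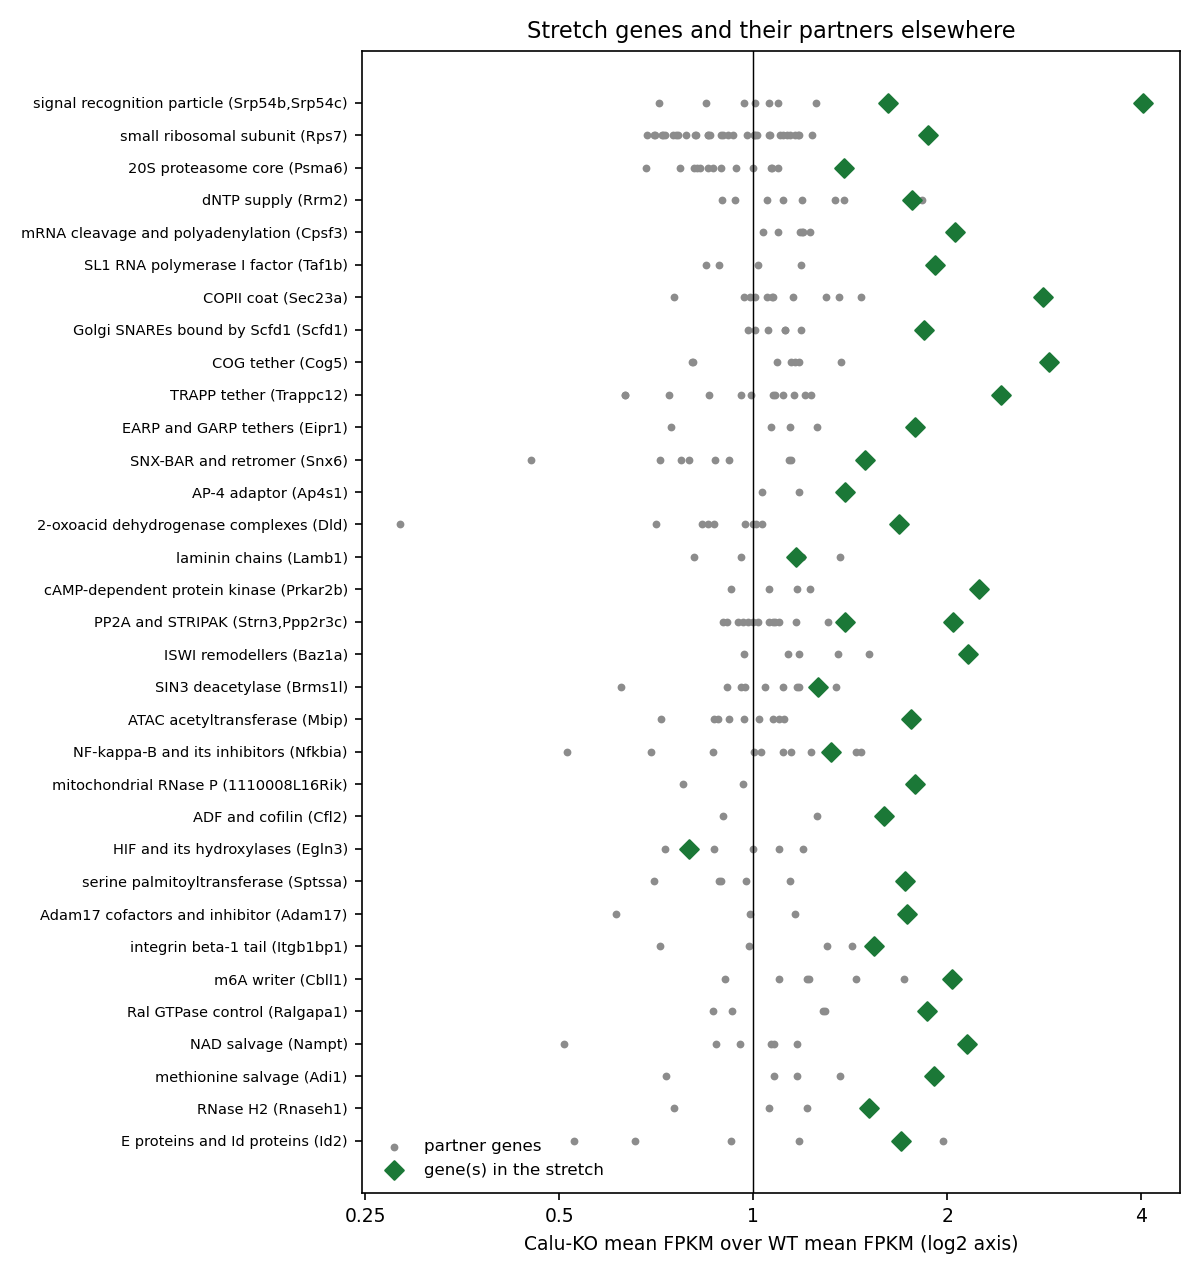
Ratio of Calu-KO mean FPKM to WT mean FPKM, on a log2 axis, for genes of the stretch (green diamonds) and for their tested partners elsewhere in the genome (grey points), in 33 lists of complexes and pathways. The partners centre on their median of 1.01, and most diamonds lie to the right of all points in their row. The stretch was chosen on the ratios of its own genes, so the place of the diamonds describes that choice.

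Translation and protein export give examples of the partners. The 33 other proteins of the small ribosomal subunit had a median log2 difference of -0.15 and none was called. Rps4x was at 686 and 719 FPKM in WT and 809.9 and 737 in Calu-KO, Rps6 at 542 and 571 against 666 and 590.2, and Rps15 at 646 and 643 against 520.2 and 388. Both Calu-KO libraries lay above WT for Rps4x and Rps6 and below it for Rps15, and the limma adjusted p-values were 0.525, 0.44 and 0.168. The 7 other genes of the signal recognition particle and its receptor had a median of -0.0043. Srpr, the receptor's alpha subunit, was at 89.7 and 94.3 in WT and 90.1 and 105 in Calu-KO. Srp68 was at 49.4 and 44.8 in WT and 45.4 and 45.9 in Calu-KO, and Srp14 at 43.8 and 47.7 against 39.7 and 25.5. The 13 other genes of the 20S proteasome had a median of -0.21, and Psma5, the most abundant, was at 203 and 207 in WT and 173 and 142 in Calu-KO. No gene of these 2 lists was called either.

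In membrane traffic, the 11 other COPII genes had a median log2 difference of 0.09 and none was called. Sar1a, the GTPase that starts the coat, was at 52.8 and 52.4 FPKM in WT and 51.5 and 59.2 in Calu-KO. Sec31a, of the outer coat, was at 38.3 and 37.8 in WT and 50.8 and 61.1 in Calu-KO, a log2 difference of 0.54 (SE 0.13, adjusted p = 0.103, limma). This was the highest among the COPII partners, against 1.45 for Sec23a. The 7 other COG subunits had a median of 0.16, the 12 TRAPP genes 0.03 and the 8 genes of SNX-BAR proteins and retromer -0.26. Snx5, the most abundant of that list, was at 57.4 and 62.4 in WT and 67.6 and 68.6 in Calu-KO. Snx32, another relative of Snx6, had the lowest ratio there, at 2.78 and 3.14 in WT and 1.76 and 0.912 in Calu-KO. None of the genes in these 3 lists was called.

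The 3 called partners belong to metabolism and transcription. Samhd1, which breaks down deoxynucleotides, was in the list of Rrm2, at 14.3 and 14.5 FPKM in WT and 25.1 and 27.5 in Calu-KO, and it rose by 0.82 on the log2 scale (SE 0.11, adjusted p = 0.0391, limma). Rrm1, the large subunit that pairs with Rrm2, was at 36.5 and 37.4 in WT and 39.1 and 48.9 in Calu-KO (adjusted p = 0.346, limma). Dbt, an acyltransferase of the branched-chain complex that works with Dld, was at 4.29 and 4.6 in WT and 1.18 and 1.33 in Calu-KO, and it fell by 1.27 (SE 0.14, adjusted p = 0.0282, limma). Dbt had the lowest ratio of the 236 tested partners, 0.283. The other 8 genes of that list were not called, and Pdha1, of pyruvate dehydrogenase, was at 39.1 and 37.98 in WT and 37.8 and 39.3 in Calu-KO. Tcf4, an E protein that Id2 can bind, was at 3.59 and 3.29 in WT and 6.65 and 6.92 in Calu-KO, and it rose by 0.81 (SE 0.12, adjusted p = 0.0443, limma). Each of the 3 calls was lost when either WT library was left out, with adjusted p from 0.127 to 0.437.

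The kinase, NF-kappa-B, hypoxia and laminin lists held no called gene. Prkar2a, the paralogue of Prkar2b, was at 58.3 and 60.4 FPKM in WT and 58.8 and 86.5 in Calu-KO, and Prkar1a at 79.00 and 80.8 against 80.05 and 89.03. The 4 tested partners of this kinase had a median log2 difference of 0.14. Among the 10 partners of Nfkbia the median was 0.09, and Rela, the main activating subunit, was at 40.2 and 39.1 in WT and 39.6 and 41.9 in Calu-KO. Hif1a, the target of Egln3, was at 71.7 and 70.8 in WT and 63.01 and 79.3 in Calu-KO, and the related hydroxylases Egln1 and Egln2 had ratios of 0.868 and 0.73. Egln3, at 0.794, thus lay between its 2 relatives. The 4 tested laminin partners had a median of 0.07, and Lamc1, the gamma chain that joins Lamb1, was at 63.8 and 62.03 in WT and 41.5 and 60.5 in Calu-KO.

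The replicates bound how finely the 90 genes can be compared with each other. The median absolute log2 difference between libraries of one group was 0.073 in WT and 0.22 in Calu-KO. Calu-KO replicate 2 was the higher of the pair in 58 genes and replicate 1 in 32. That count depends on the scaling of the deposited values. A read in 1 kb was worth 0.0684 FPKM in Calu-KO replicate 2 and 0.0591 in replicate 1. By share of reads, the 90 genes together had the other order, with 1.35% in replicate 1 and 1.30% in replicate 2. With 2 libraries in each group, an exact two-sided permutation test of any single gene cannot give a p below 0.333.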

How the data were processed

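RNA of the mouse cells (2 WT libraries, 2 Calu-KO) was sequenced on an Illumina NovaSeq and aligned with HISAT2 2.0.5, per the labels' protocols, to mm10, per the submitters' processing notes. Counter, annotation and strand use: not given in the sources used here. As the expression file, the authors deposited 1 table of FPKM values with gene coordinates, lengths and biotypes. In each library FPKM times gene length moved in whole steps (100% of values, within 0.01 reads), and the reads of single genes given here were recovered from those steps. A read in 1 kb was worth 0.0591 to 0.0684 FPKM, which did not follow depth alone. It was 0.0602 in WT replicate 2, with 16033535 reads, and 0.0684 in Calu-KO replicate 2, with 16038560 reads.

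Genes averaging 1 FPKM or more were fitted as log2(FPKM + 1), a scale that understates differences of low genes, with limma 3.58.1 in R 4.3.3 (eBayes with a trend, two-sided, Benjamini-Hochberg, threshold 0.05), and the fit was tested on simulated data. Other steps used Python 3.11.15 and pandas 2.3.3. A count test was not run, since the unit is FPKM. Groups do not overlap where both libraries of one are above both of the other. All 90 genes had the same coordinates in GENCODE M21, and promoters are from RefSeq (GRCm38.p6).

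The genes, functions and partner lists were chosen with earlier results of these data known, and functional groups were assigned by hand after values were seen. Named genes were, per group, up to 4 with the highest mean, the 5 highest and 5 lowest differences, the Srp54 copies, 3 expressed genes on each side of the stretch, and of partners those past the threshold or up to 3 with the highest mean. A few genes that it covers are not reported here. Those named beyond this rule were chosen after their values were seen. Alternatives were other pseudocounts, filters, scalings, a GC and length correction, a constant prior, a replicate block and each library left out.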

Additional observations from a re-analysis of the deposited data

How the results depend on the processing

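The median log2 difference of the 90 genes, 0.77, kept its sign under every alternative run. The stretch was chosen on this difference in the same libraries, so the kept sign describes that choice and carries no further weight. It was 0.70 with the GC and length trend removed, 0.85 with a filter at a mean of 5 FPKM, 0.86 and 0.54 with pseudocounts of 0.1 and 5, 0.66 after rescaling to equal totals, and 0.21 without a filter, where low rows of the stretch enter. Leaving out 1 library gave 0.75 to 0.80. The count of 77 genes that were higher without overlap was 76 or 77 where the 90 genes and all 4 libraries were kept. The GC and length setting was not counted. It was 62 with the filter at a mean of 5 FPKM and 103 without a filter. Those settings change which rows of the stretch are included, so neither is a count out of 90. Over the single genes and 13 alternatives, 978 of 1144 differences moved by less than the spread between replicates, 164 moved by more and 2 changed sign. Gm47441 went to 0.43 without WT replicate 1 (-1.02 without WT replicate 2), and Gm7392 to -0.20 without WT replicate 2 (0.60 without WT replicate 1).

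Of all tested genes, 329 were called, 112 higher and 217 lower. The number was 0 without a filter and 197 (45 higher, 152 lower) after rescaling to equal totals, and 42 to 5731 with 1 library left out, which takes the single library left in a group to vary as the other group does: 5731 without Calu-KO replicate 1, 2052 without Calu-KO replicate 2, 48 without WT replicate 1 and 42 without WT replicate 2. The 3 calls among partner genes became 1 with the GC and length trend removed, 1 after rescaling to equal totals, 0 without a filter, and 0 to 114 with 1 library left out. The cause was not tested. Same-numbered libraries did not deviate together (r = 0.015). With 2 libraries in a group the deviations mirror each other, so this value cannot tell whether same-numbered libraries share an origin. With the replicate block, 493 genes and 3 partner genes were called, and the median of the 90 genes was 0.77.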

Other observations

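The rows of the stretch below 1 FPKM include several regulators and signalling genes. Akap6, an anchoring protein for cAMP-dependent protein kinase, had 73 and 40 reads in WT against 136 and 181 for Calu-KO. Slc25a21, a mitochondrial carrier, had 31 and 38 reads in WT against 18 and 12 for Calu-KO. Pax9, a transcription factor of the pharyngeal pouches, had 61 and 50 in WT against 53 and 52 for Calu-KO. The first was higher in both Calu-KO libraries, the second lower in both, and the third overlapped. Of the 27 low rows with at least 20 reads over the 4 libraries, 13 were higher without overlap (48.1%) and 3 lower, with a median ratio of 1.92, while 19.2% of 3540 such rows elsewhere were higher. A row could pass this read limit through 1 group alone. Cdhr3 passed through Calu-KO, with 1 and 3 reads in WT against 26 and 17 for Calu-KO. Gm47647 passed through WT, with 20 and 3 reads against 1 and 0. These shares are therefore a description that carries no further weight. Of the 462 rows, 338 had no read in any library. Among those 338 were Twist1, Sox11, Nkx2-1 and Cmpk2, while Ahr, Meox2 and Foxa1 had at most 2 reads in any library. At 0 reads, no difference was detectable at this depth.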
